A study of Mus musculus with 5 samples.

Results

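The genes described here are 32 markers of macrophages and other leukocytes, measured by bulk RNA sequencing of mouse atria at postnatal day 1. They were taken by gene symbol from a table of 40624 genes. The rule itself uses no measured value, but the members were listed with earlier results of these data known, so their counts are descriptions and not a test on genes picked blind. All 32 had a row in the table, and 32 passed the filter on low counts that came before testing. The 3 control libraries, numbered 2, 4 and 6, carried SLN-Cre and 1 floxed Nkx2-5 allele (SLN-Cre; Nkx2-5-flox/+). The 2 mutant libraries, numbered 5 and 7, carried SLN-Cre with both alleles floxed (SLN-Cre; Nkx2-5-flox/flox). Every library came from strain C57BL/6 and every library carried the Cre, so the controls are Cre-bearing animals with 1 conditional allele and not wild-type mice. Sln encodes sarcolipin, a regulator of the calcium pump of atrial muscle, so the Cre is named for a muscle gene, and the markers below belong to other cells of the tissue. The labels do not say whether each library came from 1 animal or a pool, so each p-value measures only a spread between samples that may be technical. Since the tissue was not sorted, more cells of a type and more RNA per cell cannot be told apart in any value below.

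Nkx2-5, the cardiac homeobox factor targeted in the mutant, was measured at 76.8, 72.1 and 71.3 counts-per-million units (CPM, each count divided by the scaled library total) across controls 2, 4 and 6 but at only 5.79 CPM in mutant 5 and 5.21 CPM in mutant 7. That difference, a log2 fold change of -3.74 ± 0.09 (SE), matches the labels of all 5 libraries (adjusted p = 7.03e-07 by edgeR). Every adjusted p given here is Benjamini-Hochberg's over the quasi-likelihood test of edgeR unless another tool is named. Heart muscle was present in all 5 libraries, where 12 cardiomyocyte genes had a summed level of 61470 to 66520 CPM. That sum includes genes of all heart muscle, so it does not tell atrium from ventricle. Gene counts totalled 58501214 to 60899334 in the controls and 69648013 to 78841494 in the mutants, so both mutant libraries were the deeper ones, and all levels are scaled to depth. Among 17835 genes tested, 538 were higher in the mutant at an adjusted p under 0.05 and 636 were lower. Without control 2, 4 or 6 the higher count was 223, 203 or 327 and the lower count 306, 331 or 419, and without mutant 5 the higher count was 910.

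Tissue macrophages are phagocytes that settle in the heart before birth and are kept by the receptor Csf1r. They clear dead cells and debris through Fc, complement and scavenger receptors, digest the cargo with lysosomal proteases, and make the C1q that starts the classical complement pathway. Circulating leukocytes such as monocytes and neutrophils share with them a set of surface proteins, actin regulators and signalling kinases, while calprotectin, the S100a8 and S100a9 pair, is stored mainly by neutrophils and monocytes. Many of these genes are driven by PU.1, an ETS factor that binds the core GAGGAA.

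The 250 bases before the annotated start of 4 members are shown because they include members that rose and members that did not pass, and because each holds the PU.1 core. The sequences are from RefSeq on build GRCm38.p6, not the mm9 build of the count table. They are written 5′ to 3′ on the gene's strand, with GAGGAA or its reverse complement TTCCTC in capitals.
Laptm5, chr4:130913066-130913315, plus strand: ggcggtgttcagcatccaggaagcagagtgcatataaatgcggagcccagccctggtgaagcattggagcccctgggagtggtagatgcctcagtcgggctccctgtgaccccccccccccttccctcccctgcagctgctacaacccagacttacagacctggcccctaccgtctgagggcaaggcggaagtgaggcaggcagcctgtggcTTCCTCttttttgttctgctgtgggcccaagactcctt
S100a8, chr3:90668821-90669070, plus strand: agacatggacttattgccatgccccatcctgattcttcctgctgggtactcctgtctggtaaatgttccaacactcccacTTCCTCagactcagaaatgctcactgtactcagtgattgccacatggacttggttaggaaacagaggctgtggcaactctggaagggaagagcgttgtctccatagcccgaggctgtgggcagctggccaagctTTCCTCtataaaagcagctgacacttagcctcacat
C1qb, chr4:136886201-136886450, minus strand: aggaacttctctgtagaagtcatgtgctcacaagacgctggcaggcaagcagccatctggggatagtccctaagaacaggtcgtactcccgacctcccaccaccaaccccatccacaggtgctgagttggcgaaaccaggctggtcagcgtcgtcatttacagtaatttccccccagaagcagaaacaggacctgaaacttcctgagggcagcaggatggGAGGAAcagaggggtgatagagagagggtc
C1qc, chr4:136892915-136893164, minus strand: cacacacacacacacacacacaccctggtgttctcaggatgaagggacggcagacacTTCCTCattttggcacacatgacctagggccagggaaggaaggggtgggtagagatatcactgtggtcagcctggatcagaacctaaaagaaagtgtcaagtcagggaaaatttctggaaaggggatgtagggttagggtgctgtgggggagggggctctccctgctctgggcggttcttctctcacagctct
Laptm5 and S100a8 were higher in the mutants and C1qb and C1qc did not pass the test. Windows were found for 24 of the 32 members. GAGGAA, searched on both strands, occurred in 12 of these 24 and in 25.9% of 27025 genes of the same table. It was in 3 of the 8 members with a window that rose and in 9 of the 16 that did not pass. The longer GAGGAAGT, which contains the core, occurred in 2 of the 24 (8.33%), S100a8 and C1qc, against 2.79% of all genes. A match describes these letters only, and none of the data here measured binding.

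Of the 32 markers, 12 were higher in the Nkx2-5 mutant atria and 0 were lower, with 20 not passing the test. The share called over all tested genes was 3.02% higher and 3.57% lower. The 12 were Cd52, Laptm5, Coro1a, Lcp1, Emr1, Mpeg1, Siglec1, Fcgr1, Csf2rb, Fgr, Myo1f and S100a8, and their fitted folds ran from 1.32 to 2.65. Both mutant libraries lay above all 3 controls for 21 members, and below all 3 for 0, where 18.6% of all tested genes had both mutants on top. At an unadjusted p under 0.05, 21 members were higher and 0 lower. The share of all tested genes at that looser threshold was not counted, so these counts have no background beside them. DESeq2 and limma-voom also called 0 members lower. The median log2 fold change of the 32 was 0.42, beside 0.01 over all tested genes, and 29 of the 32 estimates were above 0. In the authors' deposited table, 13 of the members had an adjusted p under 0.05, all in the higher direction, but they were not all the same genes. The share of all genes that passed in the authors' results was not counted, and the shares above belong to the edgeR test. In the authors' deposited table Emr1 and Siglec1 did not pass (adjusted p = 0.0548 and 0.141), while Tyrobp, Lyz2 and S100a9, which did not pass here, did (0.0406, 0.0432 and 0.00116). The count of 12 was 5 without control 2, 4 without control 4 and 6 without mutant 7, and without mutant 5 the lower count was 1, Cd163.

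Summed over the 32 genes, the level was 477.0, 451.3 and 501.1 CPM in the controls and 615.3 and 600.0 CPM in mutants 5 and 7. The groups did not overlap, and the control mean of 476.5 ± 24.9 CPM (SD, n = 3) compares with a mutant mean of 607.7 ± 10.8 CPM (SD, n = 2), a ratio of 1.28. For a single value such as this sum, an exact permutation test of 3 against 2 libraries cannot go below p = 0.1 (two-sided). The ratio varied over the roles, a spread that was not tested. Pan-leukocyte genes summed to 1.67 times their control level, the group of Cd14, Csf2rb, Fgr and Myo1f to 1.72 times and calprotectin to 2.21 times, while the scavenger receptors (1.01) and C1q chains (1.03) were near 1. Much of the pan-leukocyte sum was Lcp1. Its mean was 47.48 of 84.83 CPM in the controls and 84.77 of 141.9 CPM in the mutants.

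**Figure D1:**
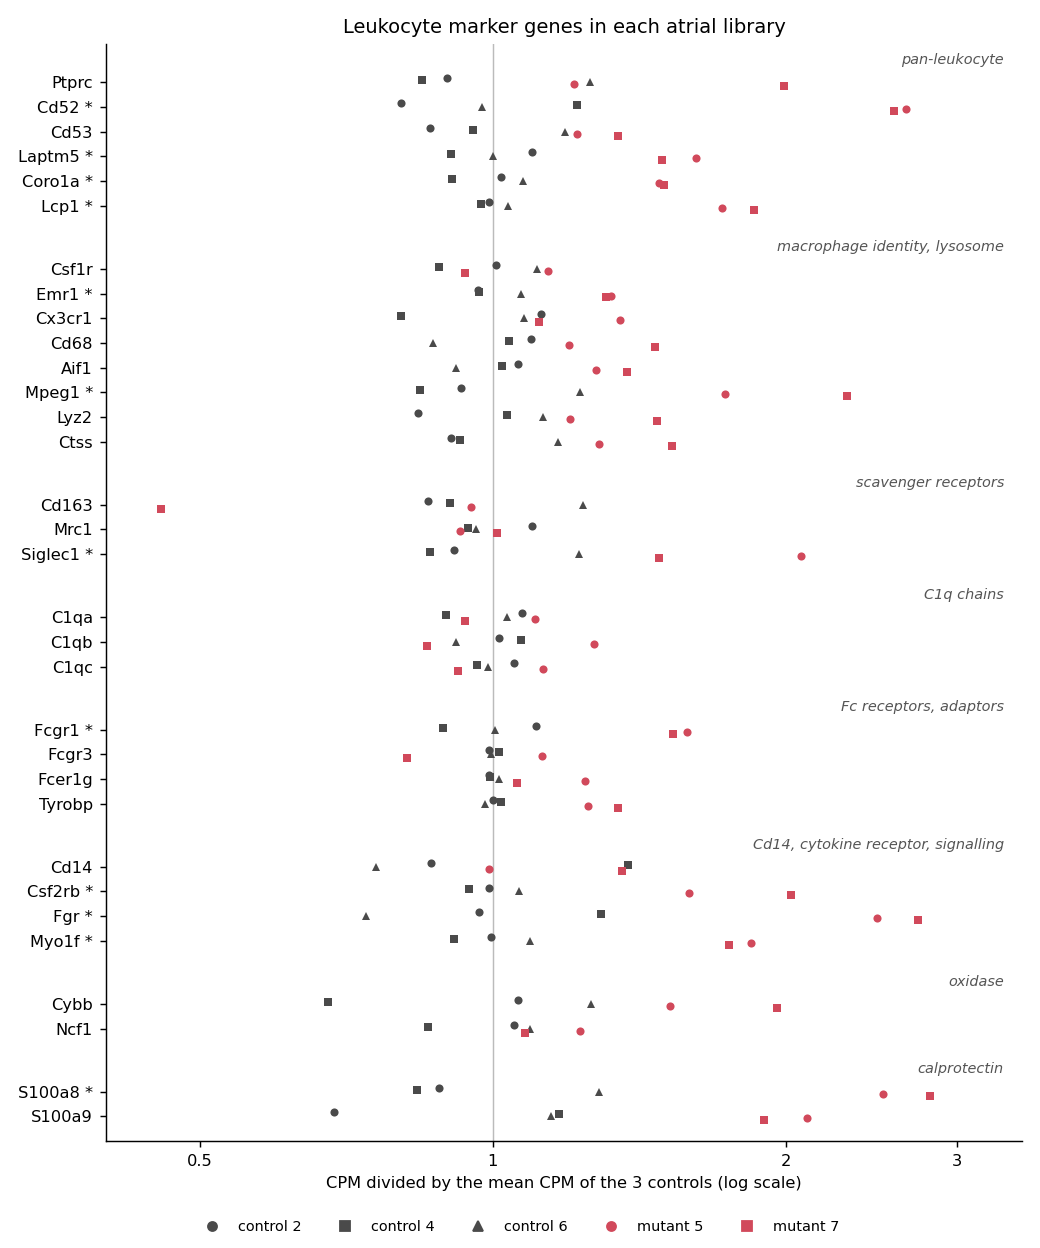
Level of each of the 32 marker genes in the 5 libraries, as CPM divided by the mean of the 3 controls, on a log axis; grey symbols are controls 2, 4 and 6, red symbols are mutants 5 and 7, and asterisks mark the 12 genes with an adjusted p under 0.05. Both mutants lie to the right of all controls for 21 genes, and the C1q chains, Mrc1 and Csf1r scatter around 1.

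The pan-leukocyte genes gave 4 calls of 6, all higher, and 6 of 6 estimates above 0. Lcp1 encodes L-plastin, an actin-bundling protein of leukocytes, and lies on chromosome 14 (75597907 to 75629145 in the authors' mm9 table). It was at 47.1, 46.2 and 49.2 CPM in the controls and at 81.6 and 88.0 CPM in the mutants. The controls stayed within a few CPM of each other and both mutants stood far above them, with a log2 fold change of 0.84 ± 0.07 (SE) and an adjusted p of 0.000503. Cd52, a small glycosylphosphatidylinositol-anchored surface peptide of lymphocytes and myeloid cells (chromosome 4, 133649642 to 133650899), was at 1.09, 1.65 and 1.32 CPM in the controls and 3.59 and 3.49 CPM in the mutants. Its groups did not overlap and its level rose 2.62-fold (log2 1.39 ± 0.22 SE, adjusted p = 0.00773).

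Laptm5, a lysosomal membrane protein of blood cells (chromosome 4, 130469263 to 130490465), measured 14.5, 12.0 and 13.2 CPM in the controls and 21.4 and 19.8 CPM in the mutants. Every mutant value exceeded every control value, at a log2 fold change of 0.64 ± 0.10 (SE, adjusted p = 0.00944). Coro1a, coronin of the leukocyte actin cortex, was at 12.96, 11.5 and 13.6 CPM against 18.8 and 19.1 CPM, again without overlap (log2 0.58 ± 0.10 SE, adjusted p = 0.0124). Without control 4 the call of Coro1a was lost. Cd52, Laptm5 and Lcp1 were the members called in every fit that left out 1 library, with highest adjusted p of 0.0303, 0.0445 and 0.00620 in those fits.

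The remaining pair of this group did not pass. Cd53, a leukocyte tetraspanin, was at 5.38, 5.95 and 7.39 CPM in the controls and 7.61 and 8.39 CPM in the mutants, an ordered but narrow gap (adjusted p = 0.235). Ptprc, which encodes CD45, the phosphatase carried by leukocytes in general, was at 3.41, 3.21 and 4.78 CPM in the controls, 4.60 CPM in mutant 5 and 7.57 CPM in mutant 7. Mutant 5 lay below control 6, so the groups overlapped, and the log2 fold change of 0.68 ± 0.26 (SE) had an adjusted p of 0.184. Without mutant 5 the call of Ptprc was gained.

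Gene models on the opposite strand overlap Cd52 (Crybg2, 172 of 1187 exonic bases), Lcp1 (Gm15628 by 311 bases and Gm15629 by 219) and Coro1a (Bola2, 26 bases), and strand use in the counting is not stated in these sources.

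Among 8 genes of macrophage identity and the lysosome, Emr1 and Mpeg1 were higher and 6 did not pass, although 6 of the 8 had both mutants above all controls. Emr1 encodes F4/80, the surface antigen by which mouse macrophages are usually recognised. It was at 12.2, 12.2 and 13.5 CPM in the controls and at 16.7 and 16.6 CPM in the mutants. That difference was small and even between the mutants (log2 0.40 ± 0.09 SE, adjusted p = 0.0418), and the call was lost when any single library was left out. Mpeg1, the pore-forming perforin-2 of macrophages (chromosome 19, 12535670 to 12537832), was at 10.4, 9.43 and 13.8 CPM in the controls, 19.4 CPM in mutant 5 and 25.8 CPM in mutant 7. It was the largest change of the group, 2.02-fold (log2 1.01 ± 0.19 SE, adjusted p = 0.0266), and the call was lost without control 2, control 4 or mutant 7.

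Ctss, Lyz2, Cd68 and Aif1 of this group were higher in both mutants than in any control but stayed above the threshold. Ctss, the macrophage protease cathepsin S, was at 22.0, 22.5 and 28.3 CPM in the controls and 31.2 and 37.0 CPM in the mutants (log2 0.49 ± 0.13 SE, adjusted p = 0.0664). Lyz2, lysozyme of macrophages and neutrophils, was at 32.8, 40.4 and 44.0 CPM against 46.9 and 57.6 CPM (log2 0.42 ± 0.14 SE, adjusted p = 0.142). In Lyz2, 15.4% of the 50-base words of its transcripts also occur in other genes, mainly its near copy Lyz1. Cd68, a lysosomal membrane glycoprotein, measured 7.02, 6.67 and 5.57 CPM against 7.69 and 9.43 CPM. Aif1, the calcium-binding protein Iba1, was at 3.10, 2.99 and 2.68 CPM in the controls and 3.73 and 4.01 CPM in the mutants. Neither passed (adjusted p = 0.150 and 0.189).

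A growth factor receptor and a chemokine receptor of tissue macrophages gave overlapping groups. Csf1r, the receptor for the macrophage growth factors Csf1 and Il34, was at 60.5, 52.9 and 66.6 CPM in the controls, 68.3 CPM in mutant 5 and 56.2 CPM in mutant 7. Mutant 7 fell inside the control range, and the 95% interval of the log2 difference ran from -0.22 to 0.33 (estimate 0.05, adjusted p = 0.853). An opposite-strand gene, Hmgxb3, overlaps 873 of 5774 exonic bases of Csf1r. Cx3cr1, the fractalkine receptor, measured 16.6, 11.9 and 15.9 CPM in the controls, with 20.0 CPM in mutant 5 and 16.5 CPM in mutant 7, so that mutant 7 sat below control 2 (log2 0.30 ± 0.16 SE, adjusted p = 0.330).

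The scavenger receptors divided. Siglec1, the sialic acid receptor sialoadhesin (chromosome 2, 130895588 to 130911852), was at 3.68, 3.48 and 4.94 CPM in the controls, 8.35 CPM in mutant 5 and 5.98 CPM in mutant 7. Both mutants exceeded the controls, at a log2 fold change of 0.83 ± 0.20 (SE). Its adjusted p of 0.0485 was just under the threshold, and the call was lost without control 2, control 4 or mutant 5, with limma-voom, and with library totals in place of scaling factors. Mrc1, the mannose receptor CD206, measured 35.4, 30.5 and 31.0 CPM against 29.9 and 32.7 CPM. The mutants lay within or just under the control range, and the interval of the log2 difference was -0.26 to 0.16 (adjusted p = 0.832). Cd163, the haemoglobin-haptoglobin receptor, was at 4.80, 5.06 and 6.92 CPM in the controls, 5.30 CPM in mutant 5 and 2.55 CPM in mutant 7. Mutant 5 sat among the controls and mutant 7 below all of them, and the estimate of -0.51 ± 0.33 (SE) had an interval from -1.31 to 0.29 and an adjusted p of 0.463. Without mutant 5, Cd163 was called lower (log2 -1.13).

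The 3 chains of C1q, the recognition molecule of the classical complement pathway, had the highest levels per length of the set along with Lyz2. Per kilobase of gene length, the control mean was 37.5 CPM for C1qa, 35.5 for C1qb, 29.8 for Lyz2 and 21.0 for C1qc. The next were Tyrobp at 19.0, Ctss at 13.5 and Fcer1g at 10.2 CPM per kilobase, and Fgr was the lowest of the 32 at 0.156. The C1q genes lie side by side on chromosome 4, within 136436204 to 136453752. C1qa was at 41.8, 34.9 and 40.3 CPM in the controls and 43.1 and 36.5 CPM in the mutants. C1qb was at 39.2, 41.2 and 35.4 CPM, with 49.0 CPM in mutant 5 and 33.0 CPM in mutant 7. C1qc was at 42.7, 39.1 and 40.1 CPM against 45.7 and 37.4 CPM. For each chain mutant 5 was the highest of the 5 libraries, and mutant 7 was lowest or second lowest. None passed (adjusted p = 0.919, 0.828 and 0.898), and the intervals of the log2 difference were -0.21 to 0.27, -0.31 to 0.49 and -0.19 to 0.26. The chains kept near-equal shares of their joint counts in every library, with C1qc at 33.2% to 34.97%.

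**Figure D2:**
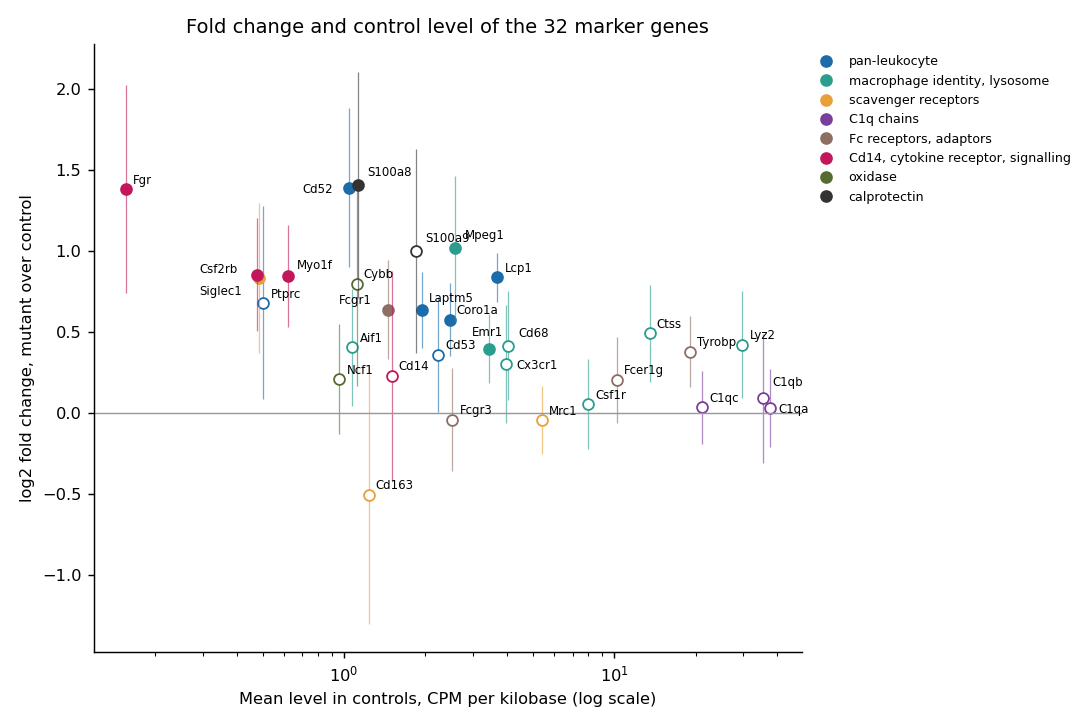
Log2 fold change of mutant over control (vertical axis, bars are 95% intervals) against the mean control level in CPM per kilobase (horizontal log axis) for the 32 genes, coloured by role; filled points have an adjusted p under 0.05. The filled points lie at control levels under 4 CPM per kilobase, and the C1q chains at 21.0 to 37.5 lie near 0.

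Ratios to C1q were taken inside each library, where no scaling between libraries is needed. Lcp1 had 38.1, 40.1 and 42.5 counts per 100 counts of the 3 C1q genes in the controls, 59.2 in mutant 5 and 82.3 in mutant 7. Laptm5 had 11.7, 10.4 and 11.4 against 15.6 and 18.5, and Cd52 had 0.878, 1.43 and 1.14 against 2.60 and 3.26. In these 3 ratios both mutants were above the controls, and mutant 7 was above mutant 5. In CPM, mutant 7 was above mutant 5 for Lcp1 but below it for Laptm5 and Cd52. The C1q sum was 137.8 CPM in mutant 5 and 106.9 CPM in mutant 7. Ptprc overlapped, with 2.76, 2.79 and 4.12 in the controls, 3.34 in mutant 5, inside the control range, and 7.08 in mutant 7. Mpeg1 had 8.39, 8.18 and 11.9 in the controls, 14.1 in mutant 5 and 24.2 in mutant 7. Cd163 ran the other way, with 3.88, 4.39 and 5.98 in the controls, 3.85 in mutant 5 and 2.38 in mutant 7. Such ratios show unequal change between genes and do not show which of them moved. They were not tested.

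**Figure D3:**
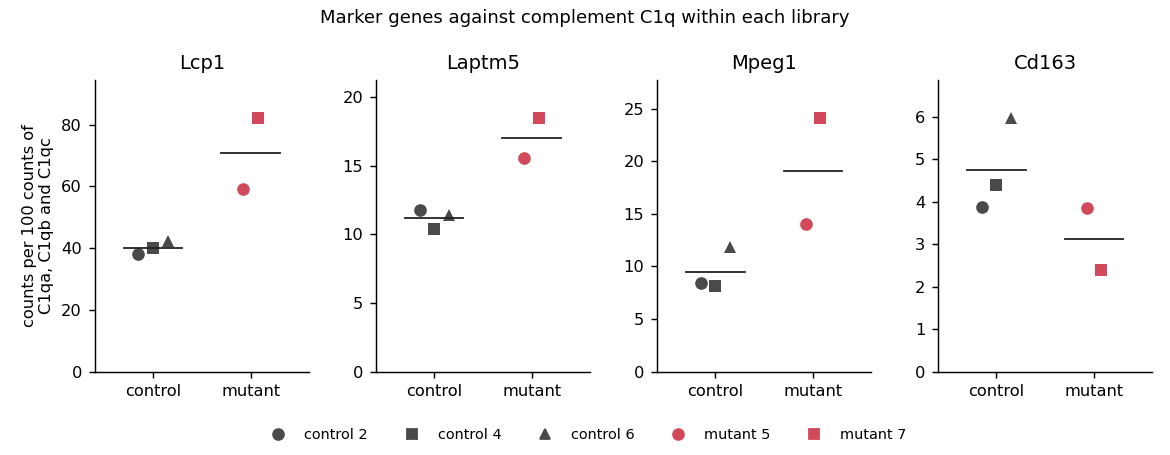
Counts of Lcp1, Laptm5, Mpeg1 and Cd163 per 100 counts of C1qa, C1qb and C1qc together in each library; symbols mark the libraries and horizontal lines the group means, and each vertical axis starts at 0. Mutant 7 has the highest value for Lcp1, Laptm5 and Mpeg1 and the lowest for Cd163.

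The Fc receptors and their adaptors gave 1 call. Fcgr1 encodes the high-affinity IgG receptor CD64, which lies on chromosome 3 (96088199 to 96097885). It was at 5.72, 4.59 and 5.18 CPM in the controls and 8.16 and 7.89 CPM in the mutants, with no overlap (log2 0.64 ± 0.14 SE, adjusted p = 0.0272), and the call was lost when any single library was left out. Tyrobp, the ITAM adaptor DAP12 of Trem2 and related receptors, was at 10.7, 10.9 and 10.5 CPM against 13.4 and 14.4 CPM. The controls were close together and both mutants above them, yet the adjusted p was 0.0549 (log2 0.38 ± 0.10 SE). Fcer1g, the gamma chain that pairs with Fc receptors, measured 8.09, 8.12 and 8.29 CPM against 10.2 and 8.64 CPM (adjusted p = 0.374). Fcgr3, the low-affinity activating IgG receptor, was at 11.2, 11.5 and 11.3 CPM in the controls, 12.7 CPM in mutant 5 and 9.26 CPM in mutant 7. The mutants bracketed the controls (log2 interval -0.36 to 0.28, adjusted p = 0.907), and 9.58% of the Fcgr3 words occur in other genes, mainly Fcgr2b.

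In the next group, a cytokine receptor, a kinase and a motor protein of myeloid cells were higher and Cd14 did not pass. Csf2rb, the common beta chain of the receptors for GM-CSF, interleukin-3 and interleukin-5, was at 3.77, 3.60 and 4.05 CPM in the controls and 6.05 and 7.69 CPM in the mutants. Each mutant stood clear of the controls (log2 0.85 ± 0.15 SE, adjusted p = 0.0144), and the call was lost without control 2, control 4 or mutant 7. The near copy Csf2rb2 accounts for most of the 12.3% of Csf2rb words found in other genes. Myo1f, an unconventional myosin of immune cells, was at 3.83, 3.51 and 4.21 CPM against 7.09 and 6.74 CPM (log2 0.84 ± 0.14 SE, adjusted p = 0.01001), and it was lost without control 4. Fgr, a Src-family kinase of myeloid cells, was at 0.679, 0.908 and 0.520 CPM against 1.74 and 1.92 CPM. This 2.60-fold rise (log2 1.38 ± 0.28 SE, adjusted p = 0.0235) rests on low levels, and the call was lost without control 2, control 6 or mutant 7. Cd14, the endotoxin co-receptor of monocytes, was at 2.04, 3.24 and 1.79 CPM in the controls and 2.33 and 3.19 CPM in the mutants. Control 4 was the highest of the 5, so the groups overlapped (log2 interval -0.42 to 0.88, adjusted p = 0.720).

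The phagocyte oxidase members were higher on average but did not pass. Cybb, the catalytic gp91phox subunit, was at 7.34, 4.69 and 8.72 CPM in the controls and 10.5 and 13.5 CPM in the mutants. Both mutants exceeded the controls, which were themselves spread widely (log2 0.80 ± 0.26 SE, adjusted p = 0.147). Ncf1, the p47phox organiser of the oxidase, measured 5.99, 4.89 and 6.22 CPM against 7.01 and 6.15 CPM, with mutant 7 inside the control range (adjusted p = 0.496). Gtf2ird2 overlaps 408 of 3663 exonic bases of Ncf1 on the opposite strand. Among partners of the complex, Ncf4, the p40phox subunit, was higher (2.49, 2.47 and 3.80 CPM against 5.22 and 5.54 CPM, log2 0.88 ± 0.21 SE, adjusted p = 0.0427). Cyba and Rac2 did not pass. The Ncf4 call was lost without control 2, control 4 or either mutant.

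Calprotectin showed large ratios at low levels. S100a8 lies on chromosome 3 (90473464 to 90473889) and was at 0.390, 0.370 and 0.569 CPM in the controls and 1.11 and 1.25 CPM in the mutants. It rose 2.65-fold (log2 1.41 ± 0.31 SE, adjusted p = 0.0300), and the call was lost without control 2, control 4 or either mutant. S100a9, its partner on the same chromosome, was at 0.662, 1.13 and 1.10 CPM against 2.02 and 1.83 CPM. Both mutants were above all controls, and its adjusted p was 0.0709 (log2 0.998 ± 0.28 SE). Other neutrophil genes were near the limit of detection: 13 of 14 on a further list stayed under 1 CPM in every library. That list holds genes of granule proteins and also the surface receptors Csf3r and Cxcr2 and the integrin Itgb2l. The list's sum was 2.19, 2.57 and 3.40 CPM in the controls, 3.74 CPM in mutant 5 and 5.95 CPM in mutant 7. Of 9 that could be tested, 0 were called and 9 had an estimate above 0. The smallest p of the list belonged to the neutrophil genes Retnlg and Ltf (adjusted p = 0.0664 and 0.127), each under 1 CPM throughout.

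The mutant libraries differed from each other for some members. The ratio of mutant 7 to mutant 5 was 0.48 for Cd163, 0.67 for C1qb, 0.72 for Siglec1 and 0.73 for Fcgr3. It was 1.65 for Ptprc, 1.37 for Cd14 and 1.33 for Mpeg1. Mutant 7 was thus lower for a scavenger receptor pair and a C1q chain and higher for CD45. With 1 library on each side these ratios have no replicate check.

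Wider lists of macrophage and complement genes gave few calls. Of 13 growth factors and chemokines tested, 2 were called higher and 0 lower. Cxcl12, the ligand of Cxcr4, rose to 94.6 and 119.4 CPM from 73.2, 84.5 and 77.7 CPM (log2 0.45 ± 0.11 SE, adjusted p = 0.0497). Ccl4, a macrophage chemokine, was at 0.271, 0.437 and 0.585 CPM against 1.24 and 1.10 CPM (log2 1.44 ± 0.35 SE, adjusted p = 0.0472). Each of these calls was lost in 4 of the 5 fits that left out a library, Cxcl12 being kept without mutant 5 and Ccl4 without control 6.

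Of 13 receptors for chemokines and growth factors, 2 passed, both of them anaphylatoxin receptors. C3ar1 was at 6.80, 7.45 and 8.73 CPM in the controls and 11.1 and 13.01 CPM in the mutants (log2 0.65 ± 0.14 SE, adjusted p = 0.0266). C5ar1 was at 2.99, 2.81 and 2.63 CPM against 4.41 and 4.70 CPM (log2 0.70 ± 0.15 SE, adjusted p = 0.0301). Neither receptor showed overlap between the groups. C3ar1 was lost without control 2, control 4 or mutant 7, and C5ar1 when any single library was left out. The monocyte chemokine receptor Ccr2, chosen here after its values were seen, was at 2.31, 1.73 and 2.10 CPM in the controls, 3.25 CPM in mutant 5 and 7.46 CPM in mutant 7 (adjusted p = 0.0653). The median log2 fold change was 0.47 over this list and 0.43 over the ligands.

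Complement genes outside C1q went in both directions. On a list of 14 that shares C3ar1 and C5ar1 with the receptors, those 2 were higher and C2, a protease of the classical pathway, was lower (8.62, 10.1 and 11.1 CPM against 6.53 and 6.43 CPM, log2 -0.61 ± 0.13 SE, adjusted p = 0.0309). C2 was lost without control 4, control 6 or either mutant. Both mutants lay above all controls for 3 of the 14, beside 18.6% of all tested genes. They lay below all controls for 4, and the share of all genes wholly below was not counted. Besides C2 the 4 were C3, C1ra and C1s, which did not pass (log2 -1.05, -1.01 and -1.12, adjusted p = 0.0599, 0.119 and 0.276). C3, C1ra and C1s were chosen here after their values were seen. The sum of the 14 was 1531, 1699 and 2389 CPM in the controls and 1128 and 1347 CPM in the mutants. Most of that sum was C3, at 1078, 1238 and 1788 CPM in the controls and 635.1 and 684.0 CPM in the mutants. Of 19 genes of ITAM and Fc receptor signalling, 0 were called, 18 had an estimate above 0 and the median was 0.32. The smallest p of that list belonged to the cytoskeletal adaptor Hcls1 (adjusted p = 0.0556) and the GTPase Rac2 (0.0566). All 7 tested genes of MHC class II presentation were estimated above 0 and 0 were called, with Cd74, the invariant chain, at 4.22, 3.68 and 4.58 CPM in the controls, 5.20 CPM in mutant 5 and 8.16 CPM in mutant 7 (adjusted p = 0.0917) and H2-Eb1 next (0.159). Of 14 general lysosomal genes, 0 were called and the median was 0.04, with Npc2 and Grn at the smallest p (adjusted p = 0.0949 and 0.110).

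Genes associated with resident cardiac macrophages gave no gene called higher. Of 13 tested, 0 were called higher and 1 lower, beside 3.02% and 3.57% of all tested genes. Estimates were below 0 for 10 and above 0 for 3, and the median was -0.19. The list's sum was 832.4, 830.0 and 883.1 CPM in the controls and 805.4 and 947.5 CPM in the mutants, so the groups overlapped. Gas6, a ligand of phagocytic receptors that many cell types make, fell from 307.0, 294.0 and 286.4 CPM to 235.0 and 232.5 CPM (log2 -0.34 ± 0.07 SE, adjusted p = 0.0212), a call lost when any 1 of the controls was left out.

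Markers of other cells moved too, and their part in the leukocyte values was not tested. Erythroid genes summed to 1373, 1209 and 1567 CPM in the controls and 1910 and 1882 CPM in the mutants, so both mutant libraries were above every control. All 10 tested had estimates above 0, with a median of 0.55, and Hba-a1 (alpha globin, which has a near-identical copy in the table, Hba-a2) and Tfrc, the transferrin receptor, were called (log2 0.48 and 0.32). Hba-a1 was lost without control 2 or control 4, and Tfrc when any 1 control or mutant 7 was left out. Platelet genes summed to 42.7, 42.7 and 40.4 CPM in the controls and 30.2 and 27.0 CPM in the mutants, but of 8 tested 0 were higher and 1 was lower, with 6 estimates below 0 and 2 above. The 1 called was Itgb3, an integrin also made by other cells (log2 -0.79, lost without control 4). Much of the sum is Pf4, a platelet chemokine at 20.3, 18.7 and 14.8 CPM in the controls, 16.0 CPM in mutant 5 and 8.23 CPM in mutant 7, where the groups overlapped (adjusted p = 0.409). Gp1bb, a chain of the platelet von Willebrand factor receptor, was above all controls in both mutants (1.37, 1.46 and 1.32 CPM against 2.13 and 2.02 CPM, adjusted p = 0.134). Pf4 and Gp1bb were chosen here after their values were seen. Mast cell genes gave 0 higher and 3 lower of 9: Hdc (log2 -0.71), Cma1 (-0.57) and Cpa3 (-0.45), of which Hdc was kept in every fit without a library, Cma1 was lost without control 2, control 6 or mutant 7, and Cpa3 when any 1 library was left out.

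Most lymphocyte markers were near 0. Of 15 T and NK cell genes 13 were under 1 CPM in every library, and the 1 called was Thy1, which fibroblasts and endothelium also make (7.11, 8.82 and 6.99 CPM against 12.7 and 11.2 CPM, log2 0.65, adjusted p = 0.0262, lost without control 2, control 6 or mutant 5). Of 10 B cell genes 9 were under 1 CPM in every library and 0 of 3 tested were called, Blk and Vpreb1 having the smallest p (adjusted p = 0.108 and 0.801). Among tissue cells, 5 of 12 fibroblast genes fell (Lum, Dcn, Mfap5, Fbln1 and Col3a1), and the sum of the 12 was 12830, 11340 and 11270 CPM against 8959 and 9092 CPM. Col3a1 was lost when any 1 control or mutant 7 was left out, and the other 4 were kept in every such fit. Of 12 endothelial genes 1 was higher, the receptor Tie1 (log2 0.33, lost when any 1 control or mutant 7 was left out). Estimates were above 0 for 11 of these 12. The endothelial sum was 2024, 2130 and 2173 CPM in the controls and 2202 and 2657 CPM in the mutants. Of 12 cardiomyocyte genes 1 was lower, the atrial natriuretic peptide Nppa (log2 -2.58).

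**Figure D4:**
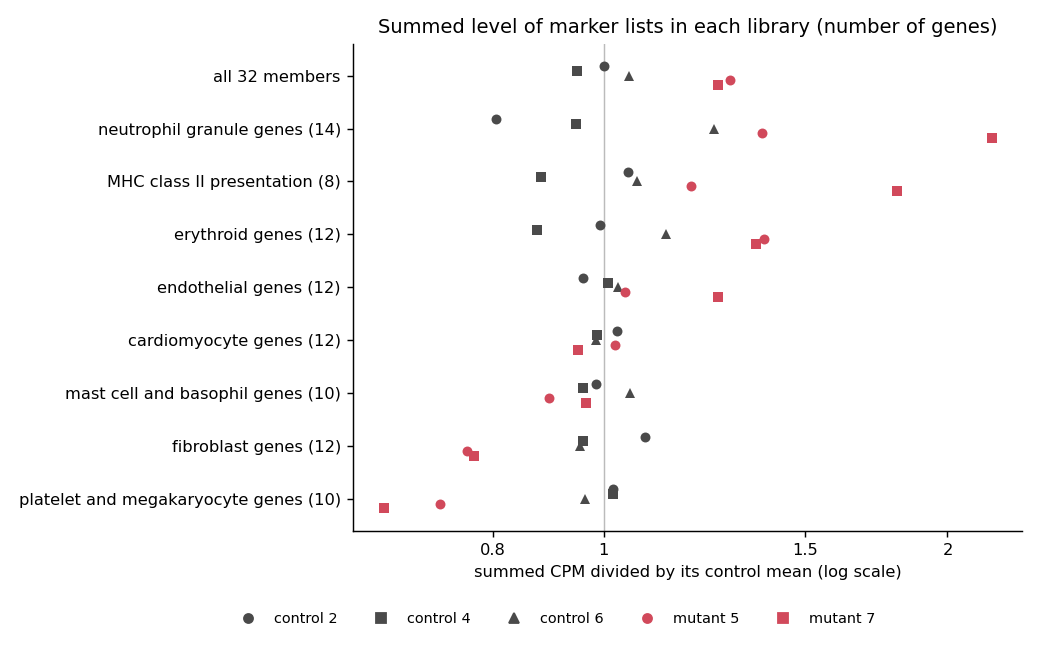
Summed CPM of the 32 markers and of 8 lists of other genes in each library, divided by the mean of the 3 controls, on a log axis; the number of genes in each sum is in parentheses. Both mutants lie above the controls for the 32 markers, the neutrophil, MHC class II, erythroid and endothelial lists, and below them for the fibroblast and platelet lists.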

How the data were processed

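RNA from atrial tissue was extracted with Trizol and RNeasy columns and polyA libraries were made with the TruSeq kit from 250 ng of total RNA, per the labels' protocols. The submitters' processing notes name build mm9, TopHat2 2.0.4, HTSeq 0.5.4p3 and DESeq, without their roles. The authors deposited whole-number counts per gene for each library, a mean RPKM per group, a log2 ratio of mutant to control, and a p-value with an adjusted p-value. Per the file headers, a second table holds the genes under a p-value threshold and was not used. The counts were tested as deposited, and the RPKM, log2 and p-value columns served only where the authors' deposited table is named.

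Rows that name no gene stayed out of totals. Of all counts in a library's column, such rows included, no feature took 3.97% to 6.03% and ambiguous took 2.31% to 3.18%. Genes passing filterByExpr (minimum count 10, minimum total 15) were fitted in edgeR 4.0.16 under R 4.3.3 with TMM factors (0.981 to 1.011), the robust quasi-likelihood test, all 5 libraries and no covariate, and p-values were Benjamini-Hochberg adjusted over 17835 genes. CPM are counts over TMM-scaled totals, SE is the log2 fold change over the root of F, the prior count was 0.125, and intervals are at 95%. Alternatives were other scaling factors, other filters, DESeq2 1.42.0, limma-voom (limma 3.58.1), a threshold of 0.01 and leaving out each library. The scripts were tested on simulated data.

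The 32 members, their 8 roles and 18 further lists of 219 genes were chosen with earlier results of these data known. Of the list genes, 3 were matched by Ensembl ID and 1 had no row. Named are all members, Nkx2-5, and of each list the genes that passed or, where none did, the 2 with the smallest p. Some list results are not reported here. Overlapping gene models and shared 50-base words were read from GENCODE vM21 transcripts by gene name. Promoter windows are RefSeq's on GRCm38.p6.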

Additional observations from a re-analysis of the deposited data

How the results depend on the processing

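With 2 mutant libraries, leaving 1 out leaves a lone mutant that is assumed to vary like the controls. No paired analysis was possible because the groups share no replicate number. Over the fits without 1 library each, members called higher numbered 4 to 10, members called lower 0 to 1, all genes called higher 203 to 910 and lower 306 to 804, and the members' median log2 fold change ran from 0.35 to 0.56. DESeq2 called 924 genes higher and 1032 lower (members 17 and 0). A threshold of 0.01 left 157 and 234 genes and 3 members. DESeq2 size factors, library totals, no filter, a filter at 1 CPM and limma-voom gave 12, 10, 15, 12 and 11 members higher and 0 lower. The sign turned only for members that did not pass the test. Over the fits without 1 library, the log2 fold change of Csf1r ran from -0.10 to 0.18, Mrc1 from -0.12 to 0.0232, C1qa from -0.10 to 0.14, C1qb from -0.23 to 0.34, C1qc from -0.12 to 0.17, Fcgr3 from -0.29 to 0.16 and Cd14 from -0.0185 to 0.525. With library totals alone, which moved the median of all genes from 0.01 to -0.03, C1qa was -0.0064 and C1qc -0.0023. The cause was not tested. Fgr and S100a8, near or under 1 CPM in the controls, are limited by depth.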
